A study of Mus musculus with 6 samples.

Results

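The 10 heat shock genes described here, Hspa1a, Hspa1b, Hspa8, Hsph1, Dnajb1, Hsp90aa1, Hspb1, Hspe1, Hspd1 and Bag3, were picked by symbol out of 18383 genes with at least 1 rounded count in mouse liver. The choice was made after earlier results of the same libraries had shown low Hspa1a and Hspa1b, so the values below are a description of these genes and carry no test. All libraries came from liver of male C57BL/6 mice (C57BL/6J in the methods), whose age the labels give as 6 to 8 weeks without saying at which point of the experiment. In the diet model, the mice received a standard diet (SD, labelled as a chow control), a high-fat diet for 16 weeks (HFD, labelled NASH, nonalcoholic steatohepatitis), or the high-fat diet with JT003 for 4 weeks (HFD plus JT003). In the CCl4 model, the mice were given corn oil, carbon tetrachloride in corn oil (CCl4, 20% solution, 5 ml per kg, every 3 days for 6 weeks, labelled liver fibrosis), or the same with JT003 for 3 weeks (CCl4 plus JT003). JT003 is a peptide agonist of the adiponectin receptors AdipoR1 and AdipoR2, given daily at 0.5 mg per kg. All mice were fasted before the livers were taken. The methods name groups of 6 mice, yet each group has 1 library, and whether it holds the RNA of a single mouse or of a pool is not stated in the sources used here. No spread between mice can be estimated, and whether groups overlap cannot be seen.

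Heat shock proteins are chaperones that bind unfolded proteins and help them to fold. In the cytosol, Hsp70 works in a cycle with Hsp40 proteins, which bring substrates and speed ATP hydrolysis, and with exchange factors of the Hsp110 and BAG families, which release ADP, before some clients pass on to Hsp90. Heat shock factor 1 (HSF1) raises the transcription of the inducible members after heat, oxidative or toxic stress, by binding repeats of the letters nGAAn upstream of their starts. Hsp60 and Hsp10 form the chaperonin of the mitochondrial matrix. In liver, the constitutive Hsp70 gene Hspa8 is always strongly expressed, while the inducible pair Hspa1a and Hspa1b is low in the unstressed organ.

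Hspa1a and Hspa1b encode almost the same Hsp70 protein from neighbouring genes on chromosome 17, and their upstream sequences are shown because the reads of one are hard to tell from those of the other. The 250 bases before each start are taken from RefSeq (GRCm38.p6, minus strand) at chr17:34972157-34972406 for Hspa1a and chr17:34959239-34959488 for Hspa1b, 5′ to 3′. Capitals mark GAANNTTC, a pair of facing nGAAn units that is its own reverse complement.
Hspa1a: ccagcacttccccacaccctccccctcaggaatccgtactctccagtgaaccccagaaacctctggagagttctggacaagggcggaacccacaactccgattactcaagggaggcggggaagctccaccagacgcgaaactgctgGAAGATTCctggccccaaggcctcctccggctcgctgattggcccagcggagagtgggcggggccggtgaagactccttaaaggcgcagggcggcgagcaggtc
Hspa1b: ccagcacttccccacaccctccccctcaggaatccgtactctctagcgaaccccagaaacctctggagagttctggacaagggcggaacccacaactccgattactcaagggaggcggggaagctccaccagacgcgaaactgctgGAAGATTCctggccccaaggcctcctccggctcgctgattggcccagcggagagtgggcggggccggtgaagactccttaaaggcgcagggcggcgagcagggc
These upstream stretches differ at 3 positions, C44T, T47C and T249G, counted from 1 at the 5′ end with the Hspa1a base first. The match lies 104 bases before the start in both, and each also holds the letters ATTGG, the reverse complement of CCAAT, at 67 bases before the start.

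The same search was made in the windows of 250 bases before to 50 bases after the start of 8 of the 10 members; Hspa8 and Hsp90aa1 had no window in the table used. GAANNTTC and TTCNNGAA are each their own reverse complement and can overlap by 3 letters. Either was found in 7 of the 8 (Hspa1a, Hspa1b, Hsph1, Hspb1, Hspe1, Hspd1 and Bag3). The share was 15.1% of all 32851 windows, or 17% of 27025 genes with any matching window. For Bag3 the match lay 42 bases after the start. In Dnajb1 there was none in either of its windows. The longer form of 3 units in a row, GAANNTTCNNGAA or TTCNNGAANNTTC, was found in Hsph1, Hspe1 and Hspd1 and in 0.603% of all windows. In Hsph1 it was made by TTCTGGAA and GAAAGTTC, 15 and 20 bases after one start and 36 and 41 after the other. A separate match of Hsph1, TTCTCGAA, lay 54 or 33 bases before these starts and is not part of the longer form. CCAAT on either strand was found in 5 of the 8, in 37.4% of windows and in 41.1% of genes. TATAAA on either strand was in 0 of the 8, in 13.6% of windows and in 15.7% of genes. Stretches around the matches are shown for Hspb1 (chr5:135887790-135887841, plus strand), Hsph1 (chr5:149636351-149636380, minus strand) and the chaperonin genes (chr1:55088053-55088082, plus strand), with capitals for either form, to show how the letters are spaced.
Hspb1: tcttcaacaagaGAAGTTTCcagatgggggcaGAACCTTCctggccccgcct
Hsph1: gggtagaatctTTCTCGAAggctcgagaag
Hspe1 and Hspd1: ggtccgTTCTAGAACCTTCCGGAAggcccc
Hspe1 and Hspd1 lie head to head, and the last stretch sits between the start of Hspe1 at 55088148 and a start of Hspd1 at 55087932 on the opposite strand, so that the 18 capital letters belong to the window of either gene. Hspd1 has another start at 55088243, and in GENCODE vM21 all 30 bases of this stretch lie in an exon of Hspd1, so from that start they are transcribed. Of the 30 bases shown for Hsph1, 26 likewise lie in one of its annotated exons. A match is a string of letters, and no binding was measured here.

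Library totals of rounded counts ran from 19374236 to 20184539, with 16082 to 16738 genes listed per library. Alb, the albumin gene that marks hepatocytes, had an FPKM of 25391 to 36570, and the summed FPKM of 6 skeletal muscle genes did not exceed 1.17. All 10 members had at least 10 counts in all 6 libraries. Levels are given as the deposited expected count and FPKM (estimated reads, and the same scaled to transcript length and library depth), and genes are compared with each other in FPKM only. Differences between libraries are log2 ratios of rounded counts scaled by TMM over the libraries of the model, with a 95% interval that covers counting error only. A gene is counted as higher or lower at a ratio of at least 2-fold.

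The inducible pair had the widest range of the 10 genes. Hspa1a (gene ID 193740) had an expected count of 96.8 in SD, 405 in HFD, 13.8 in HFD plus JT003, 39.0 in corn oil, 55.7 with CCl4 and 18.7 with CCl4 plus JT003. Its FPKM was 1.70, 7.27, 0.25, 0.71, 0.98 and 0.34 in the same order. For Hspa1b (15511), the expected counts were 2320 in SD, 3258 in HFD, 209 in HFD plus JT003, 531 in corn oil, 921 with CCl4 and 249 with CCl4 plus JT003, and the FPKM values 40.6, 58.3, 3.71, 9.64, 16.1 and 4.53. HFD was the highest library for both genes and SD the next, CCl4 and corn oil were in the middle, and both JT003 libraries were the lowest. Scaled over all 6 libraries, the highest was 29.4 times the lowest for Hspa1a and 15.8 times for Hspa1b. At the low end, CCl4 plus JT003 and HFD plus JT003 could not be ordered by counting error for either gene (intervals of -0.71 to 1.48 on the log2 scale for Hspa1a and -0.09 to 0.45 for Hspa1b).

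Reads of the pair are hard to divide. Of the 50-base stretches of the Hspa1a transcript in GENCODE vM21, 58.8% are also in the Hspa1b transcript, and 62.3% of those of Hspa1b are in Hspa1a. Of the 2967 exon bases of Hspa1a, 564 overlap Gm20481 on the opposite strand, and whether the counting used strand is not stated. The Hspa1a share of the summed expected count was 4.005% in SD, 11.1% in HFD and 5.70% to 6.99% in the other libraries. Summed over both genes, the expected count was 2417 in SD, 3663 in HFD, 222 in HFD plus JT003, 570 in corn oil, 976 with CCl4 and 267 with CCl4 plus JT003. This sum does not depend on how reads were divided between the pair.

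Between HFD and SD, the sum had a log2 ratio of 0.51 (interval 0.43 to 0.58), or 1.42-fold. Hspa1a alone was at 1.95 (1.65 to 2.31) and Hspa1b at 0.40 (0.32 to 0.48). With JT003 on the high-fat diet, the sum was 16.5-fold below HFD, at -4.05 (-4.26 to -3.87), and 11.6-fold below SD, at -3.54 (-3.76 to -3.35). The ratios of HFD plus JT003 to HFD were -4.69 for Hspa1a and -3.97 for Hspa1b, the former from 13.8 counts.

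In the CCl4 model, CCl4 over corn oil was at 0.49 (0.34 to 0.64) for the sum, 0.22 (-0.38 to 0.86) for Hspa1a and 0.50 (0.35 to 0.66) for Hspa1b. CCl4 plus JT003 was 3.65-fold below CCl4, at -1.87 (-2.08 to -1.68), with -1.48 (-2.40 to -0.80) for Hspa1a and -1.89 (-2.11 to -1.69) for Hspa1b. Against corn oil it was 2.60-fold lower, at -1.38 (-1.60 to -1.18). The controls of the models also differed from each other: corn oil was 3.81-fold below SD, at -1.93 (-2.07 to -1.80). Counting error could not order this gap and that between CCl4 plus JT003 and CCl4. The mice of both controls had neither the high-fat diet nor CCl4. Animals, batch, vehicle, injections, diet and length of treatment cannot be told apart in the gap.

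**Figure D1:**
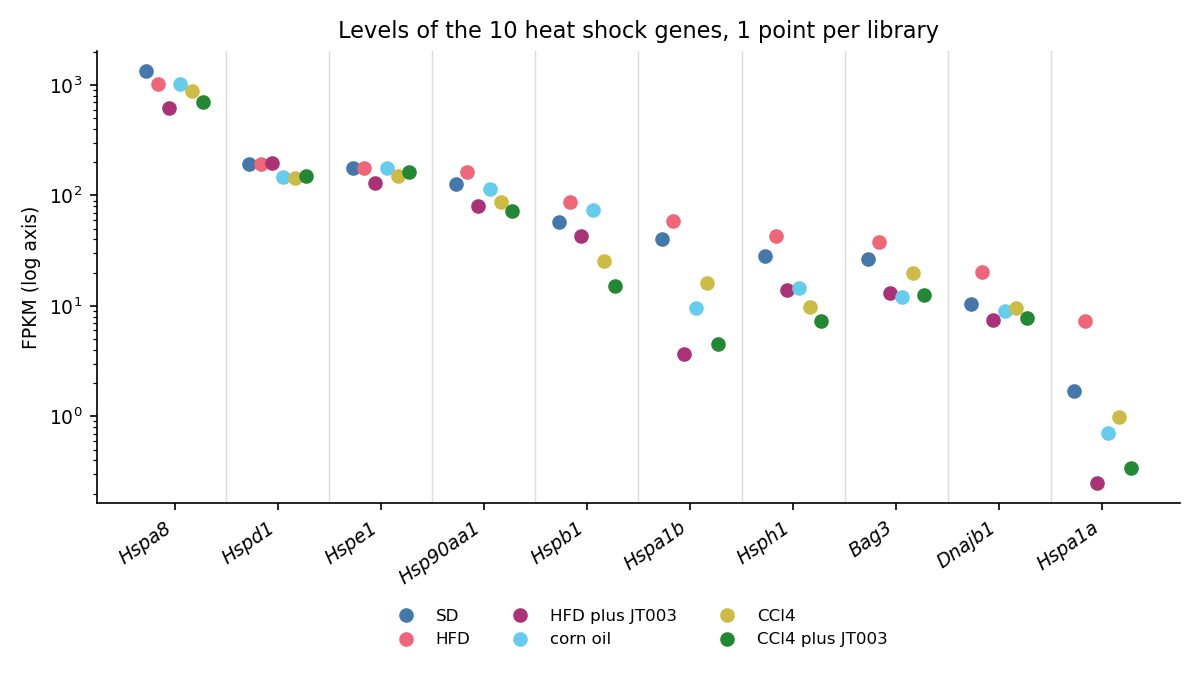
Deposited FPKM on a log axis (vertical) of each of the 10 heat shock genes (horizontal), with 1 point for each of the 6 libraries and no error bars, since each group has 1 library. Hspa8 lies highest, between 617 and 1331, and Hspa1a lowest, between 0.25 and 7.27, with HFD plus JT003 as its lowest point.

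Dnajb1, Hsph1 and Bag3 encode partners of Hsp70, and HFD was the highest library for each. Dnajb1 (81489) encodes the stress-inducible cytosolic Hsp40. Its expected count was 640 in SD, 1226 in HFD, 452 in HFD plus JT003, 521 in corn oil, 582 with CCl4 and 452 with CCl4 plus JT003, and its FPKM 10.5, 20.5, 7.51, 8.91, 9.49 and 7.74. HFD stood above the other 5 libraries, which lay within 7.51 to 10.5. HFD over SD had a log2 ratio of 0.84 (0.71 to 0.99), and HFD plus JT003 was at -1.46 (-1.62 to -1.31) against HFD. In the CCl4 model it was -0.13 (-0.30 to 0.04) for CCl4 over corn oil, a sign that turned with total-count scaling (0.10), and -0.37 (-0.56 to -0.20) for CCl4 plus JT003 over CCl4.

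Hsph1 (15505), the inducible Hsp110 and an exchange factor of Hsp70, had expected counts of 1996 in SD, 3004 in HFD, 981 in HFD plus JT003, 1003 in corn oil, 695 with CCl4 and 494 with CCl4 plus JT003. The FPKM values were 28.2, 43.3, 14.1, 14.7, 9.81 and 7.25. HFD was the highest library, and the CCl4 libraries, with and without JT003, were the lowest. HFD plus JT003 was at -1.64 (-1.74 to -1.53) against HFD and at -1.14 (-1.25 to -1.03) against SD. CCl4 was at -0.82 (-0.96 to -0.68) against corn oil and CCl4 plus JT003 at -0.50 (-0.67 to -0.33) against CCl4. No 50-base stretch of its transcript was found in another gene.

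Bag3 (29810), a co-chaperone that links Hsp70 to small heat shock proteins and to autophagy, had expected counts of 1402 in SD, 1979 in HFD, 681 in HFD plus JT003, 611 in corn oil, 1044 with CCl4 and 641 with CCl4 plus JT003, with FPKM values of 26.5, 38.2, 13.1, 11.96, 19.7 and 12.6. HFD, SD and CCl4 were the highest, in this order, and corn oil and HFD plus JT003 could not be ordered by counting error (-0.05 to 0.27). HFD plus JT003 was at -1.56 (-1.69 to -1.44) against HFD, and corn oil at -1.05 (-1.19 to -0.91) against SD. CCl4 over corn oil was at 0.48 (0.34 to 0.63) and CCl4 plus JT003 over CCl4 at -0.71 (-0.86 to -0.57). Bag3 likewise shared no 50-base stretch with another gene.

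The abundant chaperones Hspa8 and Hsp90aa1 varied less. Hspa8 (15481), the constitutive Hsp70, had the highest FPKM of the 10 genes in all 6 libraries, at 1331 in SD, 1023 in HFD, 617 in HFD plus JT003, 1015 in corn oil, 876 with CCl4 and 697 with CCl4 plus JT003. It made up 55.8% to 66.7% of the summed FPKM of the members. Unlike the inducible pair, it was lower in HFD than in SD, at -0.50 (-0.52 to -0.48). HFD plus JT003 was at -0.75 (-0.77 to -0.72) against HFD and at -1.25 (-1.27 to -1.23) against SD. CCl4 was at -0.45 (-0.47 to -0.43) against corn oil, and CCl4 plus JT003 at -0.40 (-0.42 to -0.37) against CCl4. The FPKM of Hspa8 was 31.5 times that of the inducible pair in SD, 15.6 times in HFD, 156 times in HFD plus JT003, 98.1 times in corn oil, 51.2 times with CCl4 and 143 times with CCl4 plus JT003. Of its 50-base stretches, 74.8% occur in other annotated transcripts, most of them in Gm15459.

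Hsp90aa1 (15519), the inducible cytosolic Hsp90, had FPKM values of 127 in SD, 163 in HFD, 81.0 in HFD plus JT003, 115 in corn oil, 87.5 with CCl4 and 73.1 with CCl4 plus JT003. Here too HFD was the highest library, while SD and corn oil could not be ordered by counting error (-0.00 to 0.09). HFD plus JT003 was at -1.03 (-1.08 to -0.98) against HFD, close to the 2-fold line, just as Hspb1 was at -1.05. On the other side of that line, the nearest was Hspa8 at -0.75. CCl4 was at -0.63 (-0.68 to -0.58) against corn oil. The constitutive Hsp90ab1, which is not a member, had 3.50 (HFD) to 5.57 (CCl4 plus JT003) times the FPKM of Hsp90aa1.

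Hspb1 (15507), the small heat shock protein Hsp25 of the mouse, had the lowest ratio of the members in CCl4 over corn oil. Hsph1 (-0.82) and Hsp90aa1 (-0.63) were lower there by less. Counting Hspb1, 6 members had intervals below 0 there and 2 above it. Expected counts were 1039 in SD, 1554 in HFD, 763 in HFD plus JT003, 1278 in corn oil, 461 with CCl4 and 263 with CCl4 plus JT003, and the FPKM values 57.5, 87.9, 43.0, 73.4, 25.6 and 15.2. HFD and corn oil were the highest and could not be ordered by counting error (-0.07 to 0.15), and both libraries with CCl4 were the lowest. CCl4 was at -1.75 (-1.92 to -1.60) against corn oil, the only member lower by 2-fold there, and CCl4 plus JT003 at -2.57 (-2.78 to -2.39) against corn oil. HFD over SD was at 0.49 (0.38 to 0.60) and HFD plus JT003 over HFD at -1.05 (-1.18 to -0.92). Of its 50-base stretches, 51.6% occur in the pseudogene Hsp25-ps1.

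The mitochondrial chaperonin genes varied least. Hspd1 (15510), which encodes Hsp60, had FPKM values of 193 in SD, 193 in HFD, 196 in HFD plus JT003, 148 in corn oil, 143 with CCl4 and 151 with CCl4 plus JT003. The diet libraries lay above the CCl4 libraries, and within each model the ratios with JT003 were 0.01 (-0.04 to 0.05) and 0.02 (-0.03 to 0.06). Hspe1 (15528), which encodes its lid Hsp10, had 178, 177, 131, 179, 149 and 162 in the same order. HFD plus JT003 was its lowest library, at -0.45 (-0.54 to -0.37) against HFD, and CCl4 over corn oil was at -0.50 (-0.58 to -0.42). The FPKM ratio of Hspe1 to Hspd1 was 0.922 in SD, 0.921 in HFD, 0.670 in HFD plus JT003, 1.21 in corn oil, 1.04 with CCl4 and 1.07 with CCl4 plus JT003, so the head-to-head pair did not keep one ratio. Their exons overlap over 112 bases on opposite strands, and 44.8% of the 50-base stretches of each occur in other genes.

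**Figure D2:**
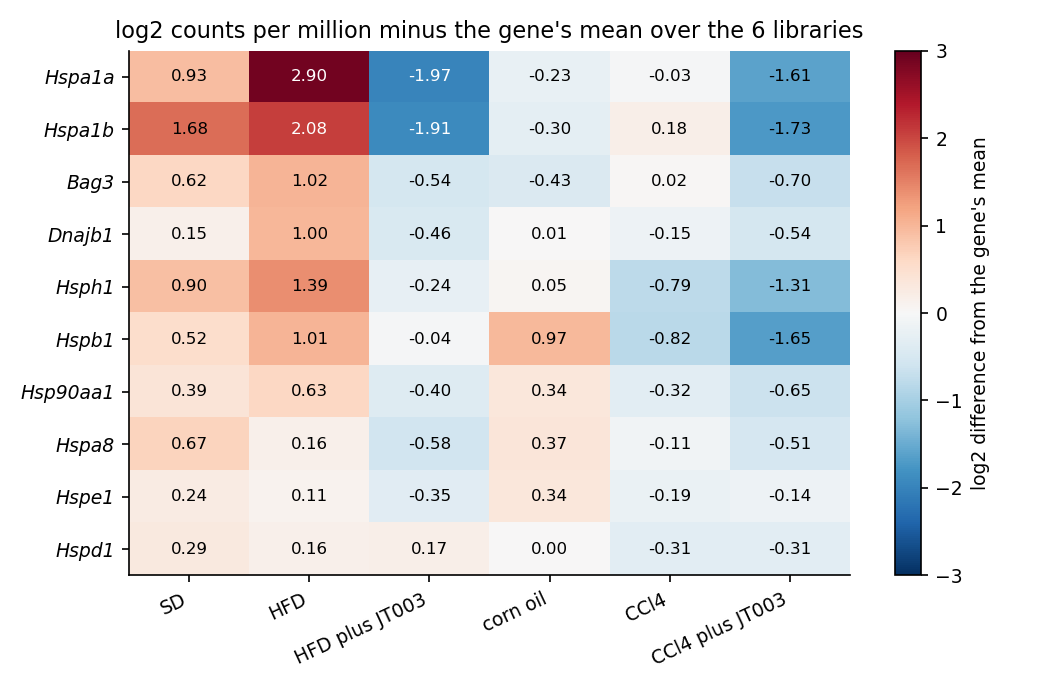
Difference of each gene's log2 scaled count (TMM over all 6 libraries) from its own mean, for the 10 members (rows) and 6 libraries (columns), with red above and blue below the mean. Hspa1a ranges from 2.90 in HFD to -1.97 in HFD plus JT003, and Hspd1 from 0.29 in SD to -0.31 in CCl4.

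Side by side, HFD plus JT003 against HFD held the most members past 2-fold. Lower were 7 of the 10 (Hspa1a, Hspa1b, Hsph1, Dnajb1, Hsp90aa1, Hspb1 and Bag3), with a median of -1.25, while 2.36% of 13452 genes were lower and 2.35% higher. Hspa8 and Hspe1 lay below 0 without reaching 2-fold, and the interval of Hspd1 held 0. Since low values of these genes led to their choice, nothing is read from the count beside its background. In HFD over SD, 1 of 10 was higher (Hspa1a) and 0 lower, with a median of 0.40, against 5.94% higher and 4.14% lower of 13334 genes; 7 members lay above 0, and Hspa8, Hspe1 and Hspd1 below. No call remained when both genes were summed. The sum, in which Hspa1b held most of the counts, cannot show whether the 1 call depended on how reads were divided. HFD plus JT003 over SD had 5 of 10 lower (Hspa1a, Hspa1b, Hspa8, Hsph1 and Bag3) and all 10 below 0, with a median of -0.96, against 4.55% lower and 6.56% higher. With total-count scaling Hspd1 moved from -0.12 to 0.02, and Hsph1 fell just short of 2-fold (-0.9992).

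For CCl4 over corn oil, 1 of 10 was lower (Hspb1) and 0 higher, with a median of -0.37, where 4.91% of 13602 genes were lower and 8.76% higher. Hspa1b and Bag3 had intervals above 0, those of Hspa1a and Dnajb1 held 0, and the other 6 were below. CCl4 plus JT003 over CCl4 had 2 of 10 lower (Hspa1a and Hspa1b), 8 below 0 and a median of -0.45, against 4.24% lower and 4.64% higher of 13785 genes. Hspe1 and Hspd1, at 0.06 and 0.02, had intervals that held 0. Against corn oil, CCl4 plus JT003 had 4 of 10 lower (Hspa1a, Hspa1b, Hsph1 and Hspb1) and all 10 below 0, with a median of -0.90, against 3.37% lower and 8.00% higher. With total-count scaling, Hspd1 and Bag3 turned to 0.03 and 0.07 there, and Hspa1a no longer reached 2-fold (-0.96). These comparisons share libraries: HFD, CCl4 and the controls each enter more than 1 of them.

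**Figure D3:**
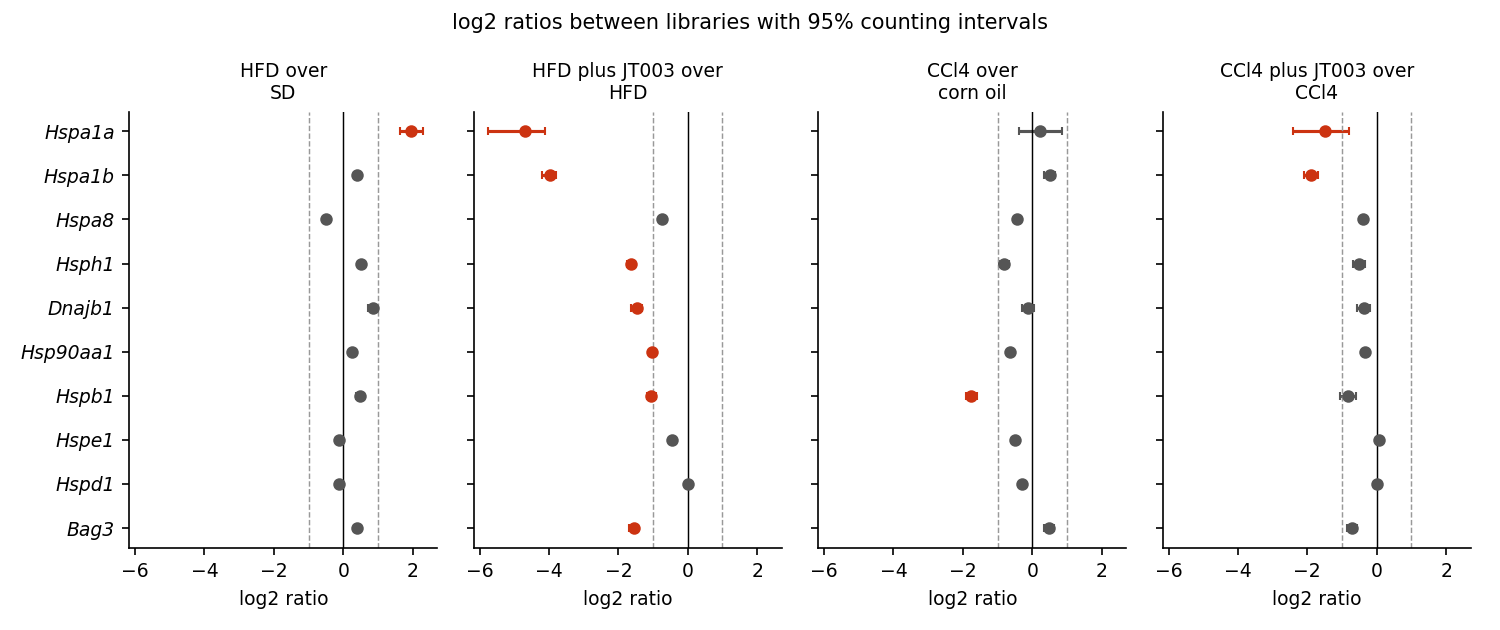
log2 ratios between libraries (horizontal) with 95% counting intervals for the 10 members (vertical) in the 4 main comparisons; red marks a ratio of at least 2-fold, and dashed lines stand at -1 and 1. Hspa1a and Hspa1b are farthest from 0 in HFD plus JT003 over HFD (-4.69 and -3.97), and Hspb1 is the red point of CCl4 over corn oil (-1.75).

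A yardstick for unlike libraries came from the controls. Corn oil over SD had 3 of 10 lower (Hspa1a, Hspa1b and Bag3) and 0 higher, with a median of -0.29, where 5.92% of 13301 genes were lower and 5.12% higher. Hsph1 was at -0.84 (-0.95 to -0.73) and Hspb1 on the other side of 0, at 0.45 (0.33 to 0.57). The intervals of Dnajb1 and Hsp90aa1 held 0.

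Another came from the CCl4 group itself. The authors' comparison of CCl4 with CCl4 plus JT003 holds a CCl4 column whose total is 2.97 times that of the CCl4 library, which appears from the values to be a pool that includes it; subtracting that library leaves a remainder of unnamed libraries. Cell type markers also differed between the remainder and the CCl4 library, with 4 of 5 red blood cell genes (median 2.44), 4 of 6 neutrophil markers (median 1.85) and 3 of 8 macrophage markers (median 0.83) higher in the remainder and 0 of 8 hepatocyte markers past 2-fold. Their part in the values that follow was not tested. Hspa1b was lower in the remainder than in the CCl4 library, at -0.68 (-0.80 to -0.55), Hspb1 was at -0.80 (-0.99 to -0.62), and Hspd1 and Hsp90aa1 were at -0.01 and 0.01. None of the 10 reached 2-fold, against 0.646% lower and 4.91% higher of 14547 genes. Against this remainder, CCl4 plus JT003 had the same 2 members lower, Hspa1a at -1.08 (-1.93 to -0.40) and Hspa1b at -1.20 (-1.41 to -1.01), where 6.45% of genes were lower and 2.63% higher. The sum of the pair was then 2.30-fold lower, against 3.65-fold with the CCl4 library. Hspb1 was at -0.00 (-0.22 to 0.21) there. The remainder over corn oil had Hsph1 (-1.08) and Hspb1 (-2.58) lower, against 3.92% lower and 12.8% higher of 14583 genes, and Hspa1b turned to -0.19 (-0.34 to -0.05).

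Among the members outside the pair, the log2 level of the summed pair over the 6 libraries was followed most closely by Bag3 (Pearson r of 0.96). Then came Dnajb1 (0.90), Hsp90aa1 (0.85), Hsph1 (0.83) and Hspa8 (0.80). Hspb1 and Hspe1 were at 0.62 and Hspd1 at 0.45. These are correlations over 6 libraries that share the scaling, given as a description. Of 3693 candidates that reached 100 counts in the highest library and had a range of at least 1 on the log2 scale, the 5 outside the members with the highest r were Zfp9 (0.97), Thap2 (0.96), Stip1 (0.92), D430020J02Rik (0.91) and Sept11 (0.90). Stip1, the co-chaperone that joins Hsp70 to Hsp90, had rounded counts of 2219 in SD, 2444 in HFD, 1423 in HFD plus JT003, 1733 in corn oil, 1846 with CCl4 and 1200 with CCl4 plus JT003.

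Other cytosolic chaperones were described by their lists. None of 7 other Hsp70 and Hsp110 genes, 13 Hsp90 genes and co-chaperones, 8 BAG and related genes and 8 subunits of the cytosolic chaperonin TRiC was 2-fold lower in HFD plus JT003 over HFD, with medians of -0.19, -0.36, -0.10 and -0.00. Of all 13452 genes there, 2.36% were 2-fold lower, so nothing is read from these counts of 0. Of 7 other small heat shock protein genes, 4 were measured there and none was 2-fold lower, with a median of -0.48 and Hspb8 at -0.76 (4707 and 2828 counts). In CCl4 over corn oil, 1 of 5 measured was lower, Hspb7, with 11 counts in corn oil and 5 with CCl4. Its ratio of -1.12 had an interval that held 0 (-3.30 to 0.22). The median of the 5 was -0.39, near that of the members, at -0.37. Of 12 other Hsp40 genes, Dnaja4 was lower in HFD plus JT003 over HFD, with 233 counts in HFD and 84 in HFD plus JT003 (-1.47). The median of the 12 was -0.04. Chordc1 (-0.87), Stip1 (-0.80), Dnaja1 (-0.66) and Hsp90ab1 (-0.60) were lower by less. Other genes went the other way. The highest of the Hsp70 and Hsp110, Hsp40 and Hsp90 lists were Hspa2 (0.72), Dnajb6 (0.49) and Fkbp5 (0.67). No TRiC subunit reached 2-fold in any of the 7 comparisons. Of the mitochondrial chaperones and proteases, Hspa9 stayed within -0.28 to 0.15 in the 4 main comparisons. Clpx, the ATPase of a matrix protease, was lower in CCl4 plus JT003 than in CCl4, with 1427 and 5245 counts (-1.89).

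Among the heat shock factors, Hsf1 had 268, 295, 313, 338, 351 and 312 counts in the order SD, HFD, HFD plus JT003, corn oil, CCl4, CCl4 plus JT003. None of the 4 measured factors and regulators reached 2-fold in the 4 main comparisons, while Hsf4 was higher in corn oil than in SD (148 and 64 counts, 1.33). RNA levels of Hsf1 do not measure its activity, which is set on the protein. Chaperones of the endoplasmic reticulum, which answer to other factors, had 8 of 14 higher in HFD over SD (median 1.11) and 5 of 14 lower in HFD plus JT003 over HFD (median -0.68), with Hspa5 at 1.69 and -1.46. Over all genes, 5.94% were higher in the former and 2.36% lower in the latter. In the CCl4 model none of the 14 reached 2-fold in CCl4 over corn oil (median -0.28) or in CCl4 plus JT003 over CCl4 (-0.31). Against the remainder of the pooled CCl4 counts, CCl4 plus JT003 had 5 of 14 lower (median -0.85), and against corn oil 1 of 14, Hspa5 at -1.01.

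**Figure D4:**
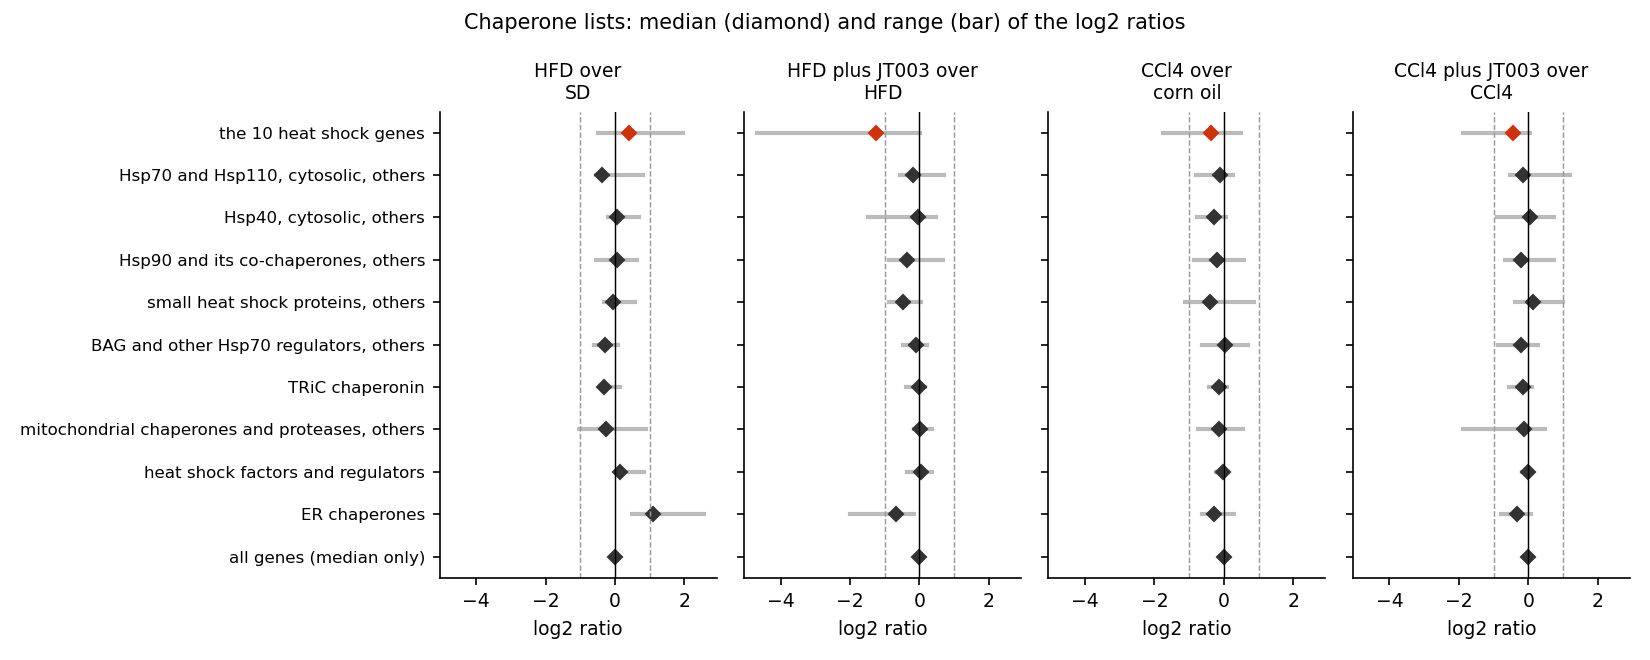
Median (diamond) and range (grey bar) of the log2 ratios (horizontal) of the 10 members, in red, and of 9 other chaperone lists (vertical) in the 4 main comparisons; for all genes only the median is drawn. In HFD plus JT003 over HFD the median of the members is -1.25 and that of TRiC is -0.00, and in HFD over SD that of the ER chaperones is 1.11.

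Several other groups of genes moved with the libraries, and their part in the values above was not tested. Genes of the circadian clock differed strongly, and the hour of liver collection is not given in the sources used here. Of 11 clock genes of the Dbp phase, 5 were higher in HFD than in SD, 2 lower in HFD plus JT003 than in HFD, 6 lower in CCl4 than in corn oil and 8 higher in CCl4 plus JT003 than in CCl4, and their summed FPKM ranged from 80.8 in CCl4 to 253 in CCl4 plus JT003. Over all genes these shares were, in the same order, 5.94%, 2.36%, 4.91% and 4.64%. Dbp itself had 398, 1738, 977, 824, 96 and 1931 counts in the order of the libraries above. In HFD plus JT003 over HFD, Cry1 was higher (112 and 418 counts, 1.86) and Nr1d1 lower (2342 and 661 counts, -1.84). The cold-inducible RNA-binding protein genes, whose RNA is known to move against temperature, were lower in HFD than in SD, with 106 and 241 counts of Cirbp (-1.26) and 615 and 1565 of Rbm3 (-1.44). In HFD plus JT003 over HFD, Cirbp was at 1.06 and Rbm3 at -0.03.

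Cell type markers also differed, and in bulk RNA fewer cells of a type and less RNA per cell cannot be told apart. The summed FPKM of 8 hepatocyte markers ranged from 45320 to 57900. All 8 macrophage markers were lower in corn oil than in SD, with a summed FPKM of 37.2 and 157, and Adgre1 at 24 and 290 counts. In HFD plus JT003 over HFD, 0 of 8 macrophage markers reached 2-fold, with a median of 0.55 (0.00 to 0.80). Of 8 hepatocyte markers, 0 reached it, with a median of -0.12 (-0.96 to 0.25). Stellate cell and myofibroblast genes had 4 of 7 lower (median -1.07). Over all genes there, 2.36% were lower and 2.35% higher. In the CCl4 model, 7 of 7 cell division genes were higher in CCl4 over corn oil (3.06 to 5.74) and 7 of 7 lower in CCl4 plus JT003 over CCl4 (median -3.13). The adipocyte gene Cfd had 2, 454, 166, 175, 2 and 0 counts in the 6 libraries, and 1 of the 4 adipocyte markers was at 0 in all of them. Of 15 immediate early genes, which answer quickly to handling and stress, 3 were higher and 2 lower in HFD over SD. Over all genes there, 5.94% were higher and 4.14% lower. In HFD plus JT003 over HFD, 0 of the 15 immediate early genes reached 2-fold. The lowest was just short of it at -0.9990, the highest was at 0.71 and the median at 0.02. With 14 of these measured, 4 were higher and 1 lower in CCl4 over corn oil, against 8.76% and 4.91% of all genes. CCl4 plus JT003 over CCl4 had 1 higher and 1 lower, the latter Egr1 (335 and 1463 counts, -2.13). Of all genes, 4.64% were higher and 4.24% lower there.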

How the data were processed

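Liver RNA was sequenced on a BGISEQ-500 instrument in 6 libraries, 1 per group. The authors deposited an expected count and an FPKM per gene and library. Per the submitters' processing notes, HISAT, Bowtie2, RSEM and the mouse build mm9 were used, and versions are not given in the sources used here. About 70% of the expected counts are whole (69.9% to 70.9% per library). Rows without a gene name held at most 0.000242% of the counts and were left out. Expected counts were rounded and scaled by TMM with edgeR 4.0.16 in R 4.3.3, using the 3 libraries of each model, or all 6 for corn oil against SD and for levels.

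Genes that reached 10 counts in either library were compared as log2 ratios with a prior count of 2 and a 95% Clopper-Pearson interval (scipy 1.17.1), which covers counting error only. With 1 library per group no test was made, and a 2-fold ratio was used as the limit. The calculation was tested on simulated counts. Alternatives were scaling by total counts, by DESeq2 1.42.0 size factors or by TMM over other sets of libraries, minimums of 1 and 100 counts, a prior count of 0.5, folds of 1.5 and 3, log2 of FPKM plus 1 or 0.1, the Hspa1 pair summed, and the pooled CCl4 counts or their remainder. The 4 comparison tables also hold fold changes and p-values by the authors, which were not used, nor were 7 of their expression columns; the pooled CCl4 expected counts were used as a yardstick.

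The members and the gene lists were chosen with earlier results of these data known. All members are named, and from each other list those with the largest ratios past 2-fold that reached 100 counts, up to 3 per comparison. Alb, Hspa5, Hspb7, Hspb8, Hspa9, Hsf1, Dnaja1, Hsp90ab1, Chordc1, Hspa2, Dnajb6 and Fkbp5 were named outside this rule, after their values were seen. Promoter windows came from RefSeq (GRCm38.p6) and transcripts from GENCODE vM21, while the counts were made on mm9. Read length and strandedness are not given in the sources used here, so the 50 bases used to look for shared sequence were a choice. Python 3.11.15, numpy 2.4.6, pandas 2.3.3 and matplotlib 3.10.9 were used.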

Additional observations from a re-analysis of the deposited data

Results flagged for a closer look

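In 3 members the model libraries moved in opposite directions against their controls, with counting intervals on either side of 0. Hsph1 was at 0.50 in HFD over SD and at -0.82 in CCl4 over corn oil. Hsp90aa1 was at 0.24 and -0.63. Hspb1 was at 0.49 and -1.75. The difference between the models was not tested, since each group has 1 library.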

How the results depend on the processing

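No paired analysis was possible because each group has 1 library, so no replicate could be left out either. Of 651 log2 ratios of the members under other scalings, count minimums, prior counts, FPKM scales and the pooled CCl4 counts, 636 kept their sign. The 15 that changed sign were all under 2-fold, and 12 ratios crossed the 2-fold line. Of 81 counts of members past the limit, 66 stayed within 1.5 times. Shares of all genes are given at 2-fold with the main settings and the remainder only, so the other counts below have no background. For HFD over SD the count of 1 was 2 at a fold of 1.5 and 0 with the Hspa1 pair summed. For HFD plus JT003 over HFD, 7 became 3 at a fold of 3. CCl4 over corn oil went from 1 to 3 at a fold of 1.5 and to 2 with the remainder of the pooled CCl4 counts. CCl4 plus JT003 over CCl4 went from 2 to 4 at a fold of 1.5, and to 1 at a fold of 3, at 100 counts and on log2(FPKM + 1). Summing the pair also gave 1, but only because the 2 called members became 1 row, still lower at -1.87. At a fold of 3, HFD plus JT003 over SD went from 5 to 2, CCl4 plus JT003 over corn oil from 4 to 1 and corn oil over SD from 3 to 1. On log2(FPKM + 1) the first of these was 3 and the second 1; the cause was not tested. Lost there were Hsph1 and Bag3 in the first, and Hspa1a, Hspa1b and Hsph1 in the second. Hsph1 in the first and Hspa1a in the second were also lost with total counts (-0.9992 and -0.96) and on log2(FPKM + 0.1) (-0.9954 and -0.88). Scaling by total counts moved the median of all genes by 0.12 in HFD over SD, 0.23 in CCl4 over corn oil, 0.14 in HFD plus JT003 over SD and 0.30 in CCl4 plus JT003 over corn oil. Depth limits Hspa1a most, with 13.8 counts in HFD plus JT003.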
